A study of Mus musculus with 8 samples.

Results

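Genes of the cell cycle and of DNA replication were compared between the renal cortex of mice without SPAK and of wild-type littermates. The set named 46 genes, of which 45 were measured, among 19938 genes tested in all. A member was measured when a probe set carried its symbol and no other, and the brightest such probe set over all arrays stood for the gene. Ccnb1 is not analysed here. The 45 genes were split by role into 19 genes of replication (S phase), 25 genes of mitosis and the G1 cyclin gene Ccnd1.

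Both groups were male C57Bl6J mice aged 10 weeks on feed with 0.32% NaCl and 1% KCl. The labels name 4 wild-type littermates (WT 1 to 4) and 4 littermates with knockout of SPAK, the kinase encoded by Stk39 (SPAK KO 1 to 4). They do not say how Stk39 was disrupted or in which cells. Total RNA came from dissected whole cortex, with 1 Affymetrix array per labelled mouse. The aim was to look for genes whose expression could offset the loss of salt in mice lacking SPAK. The values are log2 RMA values, in which a difference of 1 is a 2-fold change.

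Stk39 itself read 8.36, 8.51, 8.60 and 8.11 in WT 1 to 4 against 7.21, 6.98, 6.79 and 7.10 in SPAK KO 1 to 4, the order used for all values below, a difference of −1.38 ± 0.11 (SE; limma adjusted p = 5.8e-04). The tissue label was borne out by its markers. Slc34a1, the phosphate transporter of the proximal tubule, read 13.76 to 13.83 and Umod, the uromodulin gene of the thick ascending limb, 12.93 to 13.10 over the 8 arrays. The SPAK KO arrays resembled each other more than separate WT arrays did. Over 6297 genes whose mean exceeded 8, a gap above 0.4 was seen for 1 to 10 genes in each SPAK KO pair and for 3 genes in the pair of WT 2 and WT 3. The other WT pairs had 119 to 228 such genes. WT 2 and WT 3 were therefore counted as 1 sample in every WT mean ± SD (n = 3), while levels in SPAK KO carry no SD. The limma fit over 8 arrays treats all arrays as separate mice, so its p-values measure a spread that may be partly technical.

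A dividing cell first licenses replication origins with the MCM helicase, then copies its DNA while cyclins E and A drive S phase, and finally separates its chromosomes under cyclin B, CDK1 and the Aurora and Polo kinases. E2F factors switch on the replication genes. The mitosis genes are held off in resting cells by the DREAM complex and switched on later through B-MYB and FOXM1, and many carry an element called CHR in their promoters. In the healthy adult kidney tubule cells divide rarely. Transcripts of many of these genes come from the few cells in cycle, which can be tubular, endothelial, stromal or immune. This does not hold for all members, since Ccnd1 is not restricted to dividing cells and Pcna also serves in DNA repair. In whole cortex RNA, fewer cycling cells and less of a transcript per cell cannot be told apart.

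The promoters of 6 members whose values are described below are shown. CHR and E2F sites both appear among them, though not in every promoter. They were taken from RefSeq (GRCm38.p6), as the 180 bases before the start, 5′ to 3′ on the gene's strand. Capitals mark a CHR (TTTGAA or TTCGAA), an E2F site (TTTGGCGC, TTTCCCGC, TTTCGCGC or TTTGCCGC) or a CCAAT box (CCAAT), each on either strand. Prc1 lies at chr7:80294296-80294475 (plus strand), before the downstream of its listed starts. Aurka lies at chr2:172370571-172370750 (minus strand), Cdk1 at chr10:69352913-69353092 (minus strand), Mcm5 at chr8:75109329-75109508 (plus strand), Mcm6 at chr1:128359706-128359885 (minus strand) and Rrm2 at chr12:24708074-24708253 (plus strand).
Prc1: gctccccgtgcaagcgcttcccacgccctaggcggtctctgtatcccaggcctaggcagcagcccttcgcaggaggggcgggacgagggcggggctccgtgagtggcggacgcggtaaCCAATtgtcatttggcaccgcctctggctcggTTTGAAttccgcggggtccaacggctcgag
Aurka: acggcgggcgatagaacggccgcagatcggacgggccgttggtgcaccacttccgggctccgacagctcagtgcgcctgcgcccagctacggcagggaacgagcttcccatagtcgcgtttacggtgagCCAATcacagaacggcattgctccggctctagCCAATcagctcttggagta
Cdk1: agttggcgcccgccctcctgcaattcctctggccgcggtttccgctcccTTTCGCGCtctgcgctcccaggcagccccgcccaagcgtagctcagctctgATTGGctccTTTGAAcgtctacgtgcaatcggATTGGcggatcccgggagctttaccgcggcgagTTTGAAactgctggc
Mcm5: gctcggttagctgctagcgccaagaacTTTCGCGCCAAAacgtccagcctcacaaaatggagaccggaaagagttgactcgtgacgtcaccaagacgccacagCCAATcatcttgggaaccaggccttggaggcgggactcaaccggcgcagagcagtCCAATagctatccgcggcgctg
Mcm6: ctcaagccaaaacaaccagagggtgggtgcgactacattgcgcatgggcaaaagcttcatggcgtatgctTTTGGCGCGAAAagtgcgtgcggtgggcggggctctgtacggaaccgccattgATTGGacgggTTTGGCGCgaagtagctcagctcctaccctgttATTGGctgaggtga
Rrm2: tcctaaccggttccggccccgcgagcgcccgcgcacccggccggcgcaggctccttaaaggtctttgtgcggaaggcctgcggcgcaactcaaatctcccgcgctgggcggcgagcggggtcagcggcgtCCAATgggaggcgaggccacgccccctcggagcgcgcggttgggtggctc

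In these stretches Prc1 has a CHR after a CCAAT box, and Cdk1 has an E2F site, 2 copies of TTTGAA and CCAAT boxes in reverse. Mcm5 and Mcm6 each have a pair of E2F sites that overlap on opposite strands, with CCAAT boxes after them, Mcm6 has another E2F site, and Rrm2 has a CCAAT box alone. Aurka has 2 CCAAT boxes, and its TTTGAA begins at base 33 of the transcript, outside the stretch shown. RefSeq promoters of 300 bases (250 before to 50 after the start, the first listed start of each gene) matched 36 of the 45 members. A CHR was present in 17 of 20 mitosis promoters (85.0%) and 3 of 16 replication promoters (18.8%), against 19.4% of 27025 promoters in all. An E2F site was present in 5 of 16 replication promoters (31.2%) and 1 of 20 mitosis promoters, that of Cdk1 (5.0%), against 2.32% of all. CCAAT boxes were present in 17 of 20 and 11 of 16, against 37.9%. These matches are a description of letters and were not tested.

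Of the 45 members, 5 were lower in SPAK KO by limma over the 8 arrays (Benjamini-Hochberg adjusted p under 0.05 over all genes), 0 were higher and 40 did not pass. The 5 were Prc1, Ccna2 and Aurka among the mitosis genes and Rrm2 and Mcm5 among the replication genes, at 71.3%, 74.0%, 78.7%, 77.9% and 83.5% of the WT level. That is 11.1% of the members, where 0.682% of all genes tested were called lower and 1.39% higher. At an unadjusted p under 0.05, 19 members were lower (42.2%; 10.1% of all genes) and 1, Tyms, was higher (9.0% of all genes). The difference lay below 0 for 40 of 45 members (88.9%), against 54.2% of all genes, and the members' median was −0.13, against −0.01 over all genes. With arrays centred on the median of all probe sets, 32 of 45 lay below 0, against 34.5% of all genes, and the members' median was −0.08, against 0.05 over all genes. The members were chosen with earlier results of these arrays known, so these shares are a description.

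**Figure D1:**
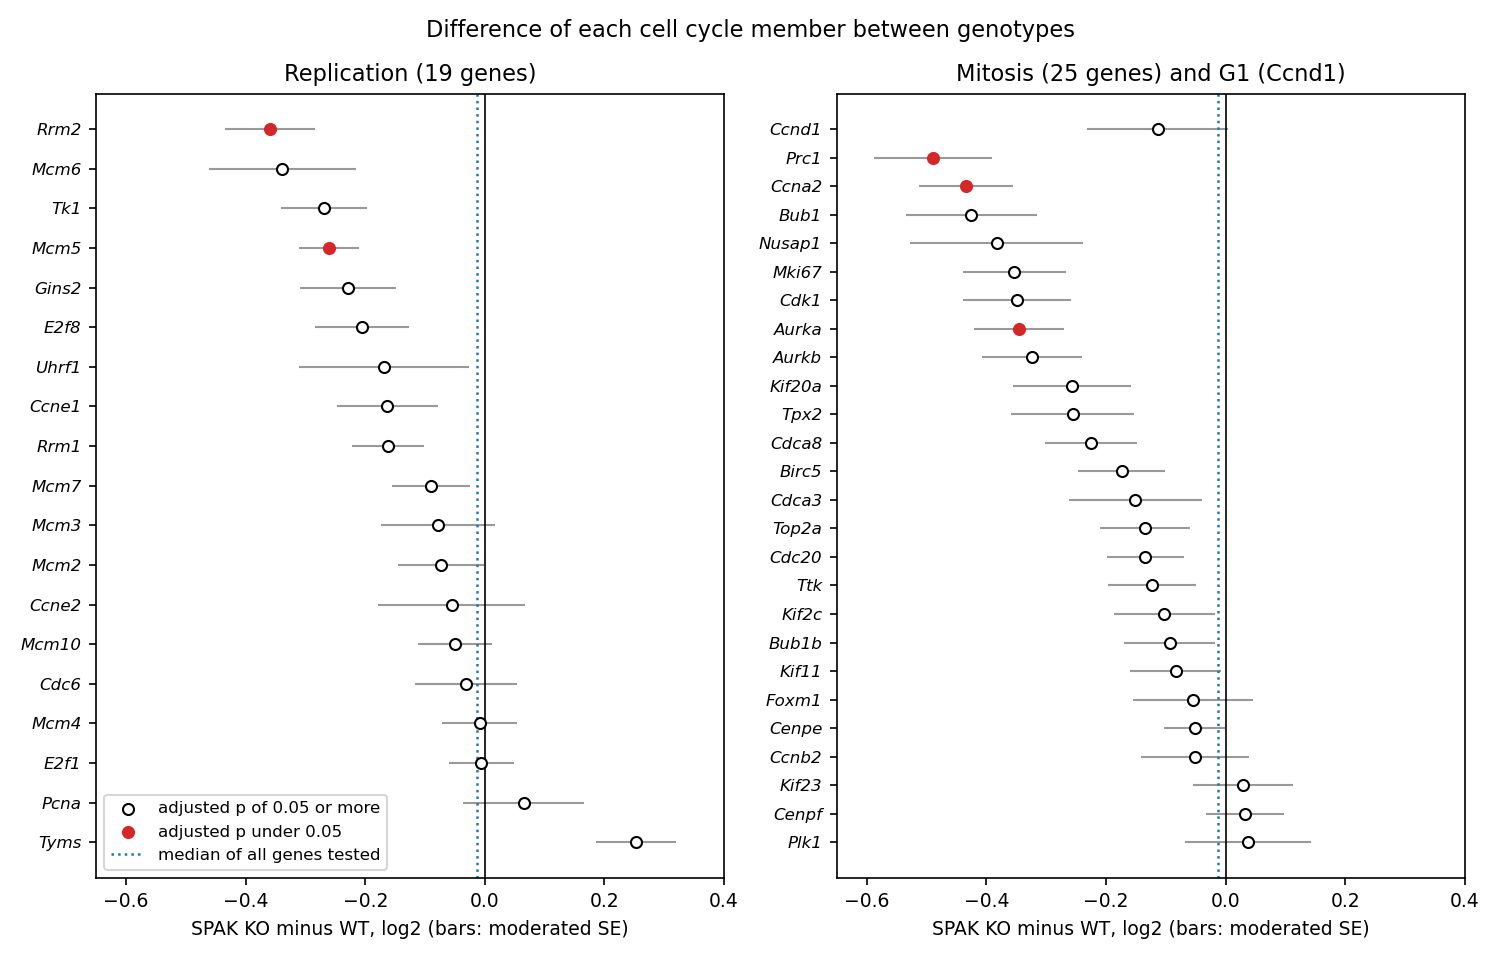
Difference between SPAK KO and WT (log2, horizontal axis) for each replication member (left) and for each mitosis member and Ccnd1 (right). Points are estimates, bars the moderated SE of limma over 8 arrays, red points the 5 members with an adjusted p under 0.05, and the dotted line is the median of all genes (−0.01); only Tyms, Pcna, Kif23, Cenpf and Plk1 lie above 0.

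The calls rested on few samples. Leaving out WT 1, 2, 3 or 4 gave 4, 1, 0 or 5 called members, and leaving out SPAK KO 1, 2, 3 or 4 gave 1, 0, 0 or 1. Not all of these were among the 5 called with all arrays. Without WT 1, 2 of the 4 were, and Cdk1 and Tpx2 were new. Without WT 4, 4 of the 5 were, and Mki67 was new. Ccna2 passed without WT 1, WT 2, WT 4 or SPAK KO 4, and Rrm2 passed without WT 1 or SPAK KO 1. Prc1, Aurka and Mcm5 passed only without WT 4. When agreeing arrays were merged (leaving 3 WT samples against a lone SPAK KO sample, taken to vary like WT), limma called 0 members and 0 of all genes. With a trended and robust variance limma called 9 members lower, where 1.21% of all genes were, and with genes of a mean under 6 left out 6 of 24, where 1.68% were. In the fit that counted agreeing arrays once, 7 members had an unadjusted p under 0.05, all lower, where 1.48% of all genes were lower and 1.62% higher at that p. In the same fit 41 of 45 members lay below 0, against 54.3% of all genes, and the members' median was −0.12. That fit sets its p-values on a single SPAK KO sample.

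Separation of the arrays does not need the variance model, but it still counts all 8 arrays as separate mice. With agreeing arrays merged, it sets 3 WT samples against a lone SPAK KO sample. All SPAK KO arrays lay below all WT arrays for 9 of 45 members, against 5.71% of all genes. These were Ccna2, Cdk1, Mki67, Prc1, Aurka and Aurkb of the mitosis genes and Mcm5, Rrm2 and Tk1 of the replication genes. For Tk1 this held on its brighter probe set only. All SPAK KO arrays lay above all WT arrays for Tyms alone among the members, against 6.9% of all genes.

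**Figure D2:**
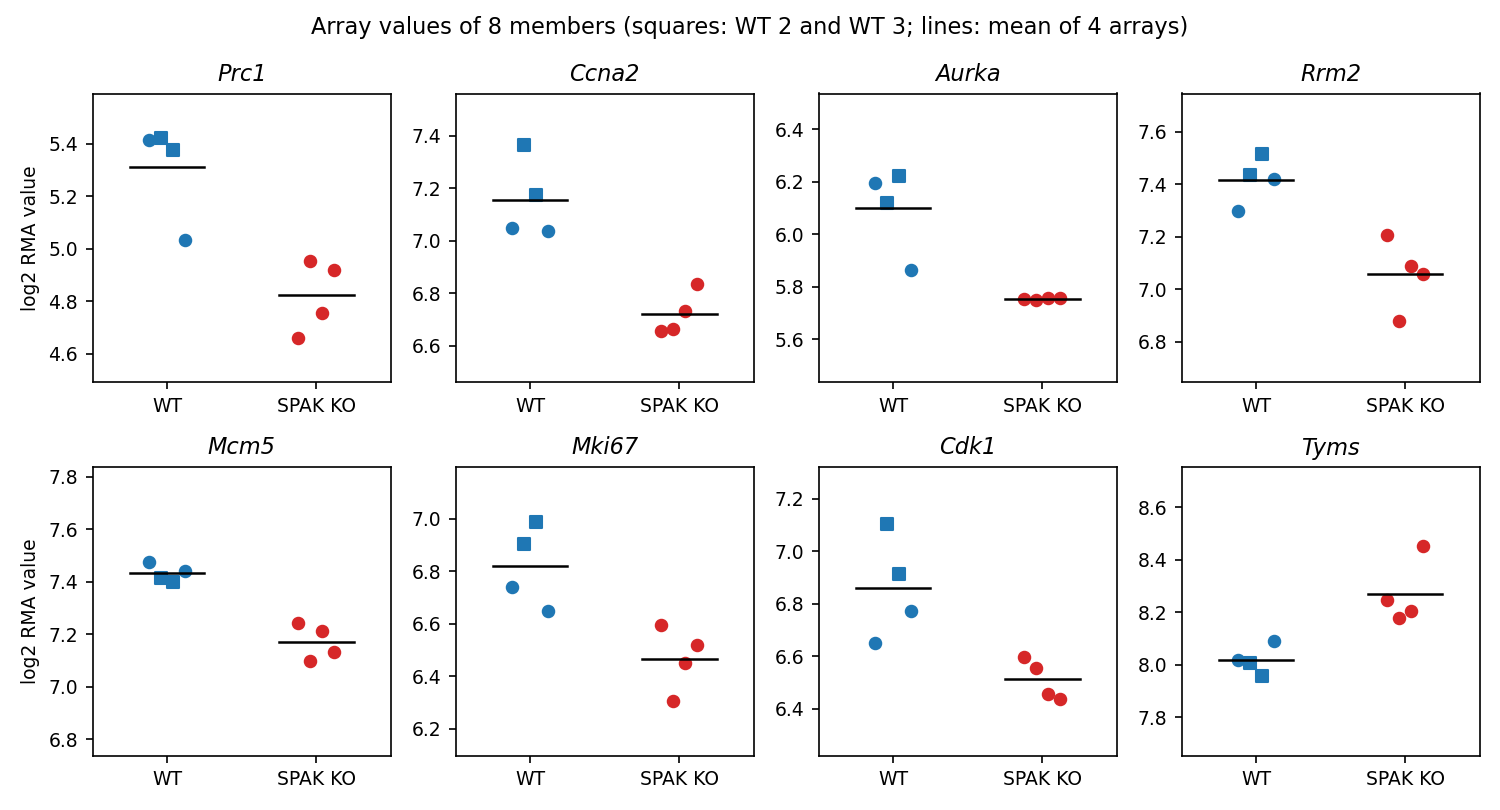
Log2 RMA values (vertical axes) of 8 members on the 4 WT arrays (blue, with WT 2 and WT 3 as squares) and the 4 SPAK KO arrays (red); lines are means of 4 arrays. The groups do not overlap in any of the 8 panels, Tyms runs the opposite way to the rest, and Aurka spans 5.75 to 5.76 in SPAK KO.

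Among the replication genes, the MCM helicase subunits unwind DNA ahead of the fork as a ring of 6 proteins. Of these 6 genes 1 was lower, 0 were higher and 5 did not pass, and all 6 differences lay below 0, with a median of −0.08. Mcm5 read 7.48, 7.42, 7.40 and 7.44 in WT against 7.25, 7.10, 7.21 and 7.13 in SPAK KO. The WT values lay close together and above every SPAK KO value. The difference was −0.26 ± 0.05 (SE; limma adjusted p = 0.0303), from 7.44 ± 0.03 (SD, n = 3) in WT. Mcm6 read 6.75, 7.28, 7.19 and 6.74 against 6.71, 6.62, 6.52 and 6.75. Here WT 2 and WT 3 were high, whereas WT 1 and WT 4 lay at the top of the SPAK KO range. Its difference of −0.34 ± 0.12 did not pass (adjusted p = 0.179) and was −0.09 with WT 2 and WT 3 left out. Mcm7, Mcm3, Mcm2 and Mcm4 gave −0.09, −0.08, −0.07 and −0.01, with overlapping groups. Differences between the subunits were not tested. With centring on all probe sets, 5 of the 6 stayed below 0.

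The 3 genes that load or start the helicase did not pass. Gins2, a subunit of the GINS complex that activates it, read 6.53, 6.47, 6.54 and 6.35 against 6.36, 6.15, 6.38 and 6.08. WT 4 fell within the SPAK KO range, and the difference was −0.23 ± 0.08 (limma adjusted p = 0.166). Mcm10, an initiation factor, and Cdc6, which loads MCM on origins, gave −0.05 ± 0.06 and −0.03 ± 0.09. Pcna, the sliding clamp of the replicative polymerases, which also serves in DNA repair, gave 0.06 ± 0.10. It read 10.27, 10.63, 10.77 and 10.76 against 10.63, 10.69, 10.70 and 10.67, so WT 1 alone was low.

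The 4 genes of nucleotide synthesis held the widest spread among the replication roles, with 1 lower, 0 higher and 3 that did not pass. Rrm2, the S phase subunit of ribonucleotide reductase, read 7.30, 7.43, 7.51 and 7.42 in WT against 7.20, 6.88, 7.09 and 7.06 in SPAK KO. The groups did not overlap, with SPAK KO 1 and WT 1 the nearest arrays. The difference was −0.36 ± 0.07 (SE; 1.28-fold lower; limma adjusted p = 0.0402), from 7.40 ± 0.09 (SD, n = 3) in WT. Rrm1, the enzyme's large subunit, which is less tied to S phase, read 7.73, 7.75, 7.79 and 7.60 against 7.60, 7.58, 7.44 and 7.60. WT 4 was level with the top of the SPAK KO range, and the difference of −0.16 ± 0.06 did not pass (adjusted p = 0.183). Tk1, the S phase thymidine kinase, read 7.27, 7.16, 7.26 and 7.36 against 7.08, 7.02, 7.07 and 6.80. Its groups did not overlap on this probe set, and its difference of −0.27 ± 0.07 did not pass (limma adjusted p = 0.091). On the dimmer Tk1 probe set the groups overlapped, with SPAK KO 2 at 6.24 above WT 1 at 6.22 and WT 2 at 6.11.

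Tyms, thymidylate synthase, which makes dTMP for DNA synthesis, ran the other way. It read 8.02, 8.01, 7.96 and 8.09 in WT against 8.25, 8.18, 8.21 and 8.45 in SPAK KO, so every SPAK KO array was above every WT array. The difference was 0.25 ± 0.07 (SE) and did not pass over all genes (limma adjusted p = 0.0881). It passed as higher with the trended and robust variance, with genes of a mean under 6 left out, and with centring on all probe sets. Its adjusted p ran from 0.0354 to 1.00 over the alternatives. Tk1 and Tyms are the salvage and the de novo source of the same nucleotide, and their differences had opposite signs.

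The S phase cyclins and regulators did not pass either. Ccne1 and Ccne2, the cyclin E genes, gave −0.16 ± 0.08 and −0.06 ± 0.12. E2f1, an activating E2F, gave −0.01 ± 0.05, with 6.49 to 6.60 on the WT arrays and 6.44 to 6.60 on the SPAK KO arrays. E2f8, a repressing E2F, gave −0.21 ± 0.08 (limma adjusted p = 0.195). Uhrf1, which copies DNA methylation to the new strand with DNMT1, gave −0.17 ± 0.14, with WT 1 high at 5.36 and WT 3 at 4.75.

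**Figure D3:**
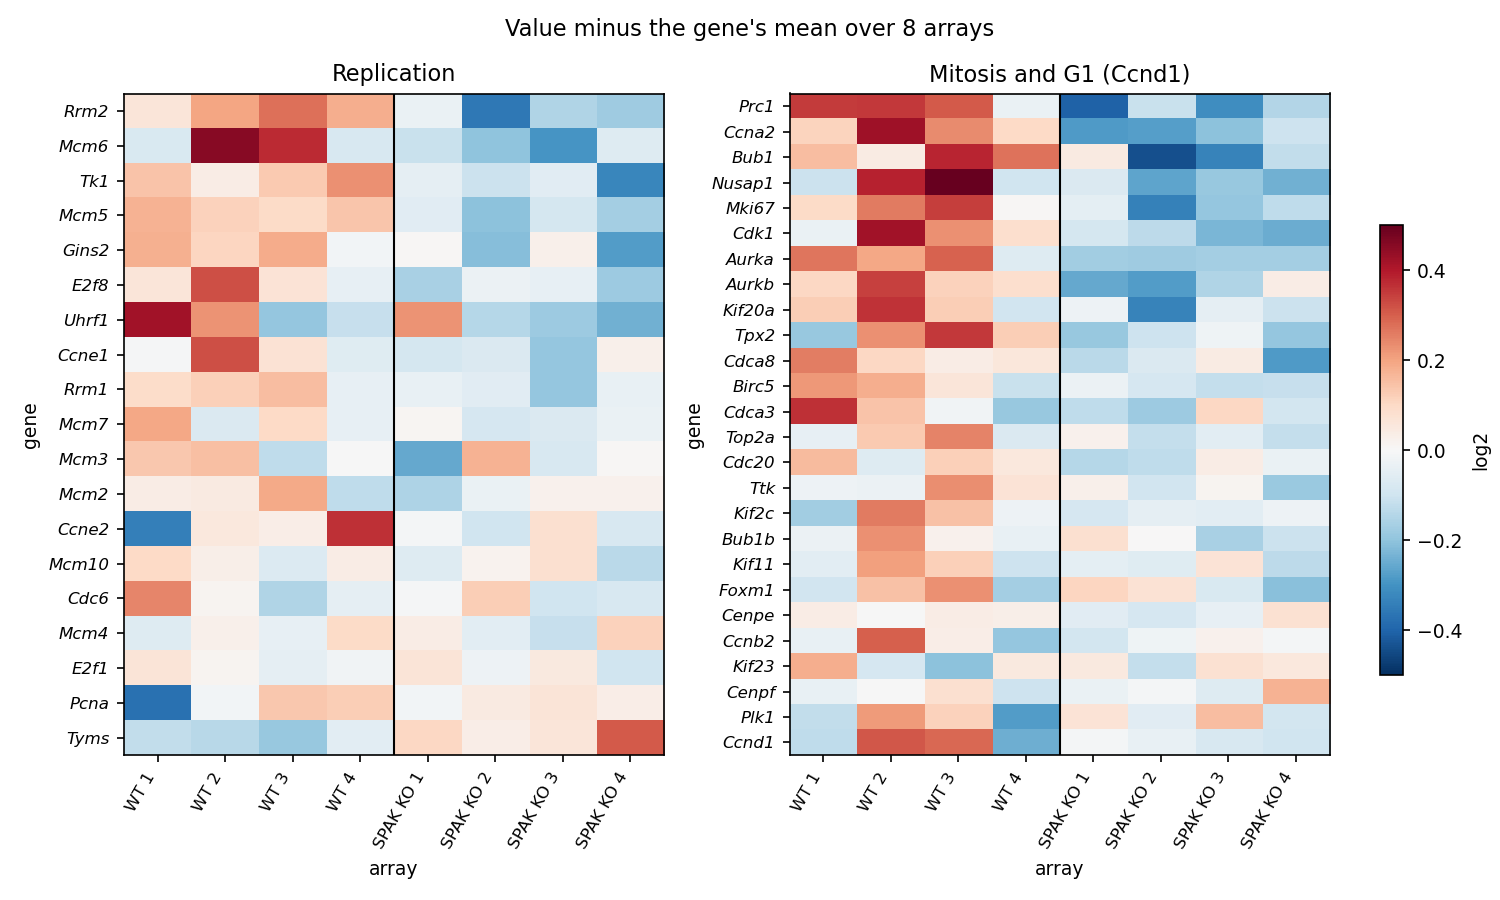
Each cell is a member's log2 RMA value minus its mean over the 8 arrays (rows: genes, ordered by difference within replication, left, and mitosis with Ccnd1, right; columns: arrays; red high, blue low). WT 2 and WT 3 are red for many mitosis genes, such as Nusap1 at 7.17 and 7.37, while WT 4 is closer to the SPAK KO arrays.

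Among the mitosis genes, the cyclins, their kinase and their transcription factor had 1 lower and 3 that did not pass. Ccna2, the cyclin of S phase and mitotic entry, read 7.05, 7.36, 7.17 and 7.04 in WT against 6.66, 6.66, 6.73 and 6.83 in SPAK KO. The groups did not overlap, with WT 4 and SPAK KO 4 the nearest arrays. The difference was −0.43 ± 0.08 (SE; 1.35-fold lower; limma adjusted p = 0.0224), from 7.12 ± 0.13 (SD, n = 3) in WT, and −0.32 with WT 2 and WT 3 left out. Cdk1, the mitotic kinase that cyclins A and B activate, read 6.65, 7.11, 6.91 and 6.77 against 6.60, 6.55, 6.46 and 6.44. Its groups did not overlap, though WT 1 and SPAK KO 1 were close, and −0.35 ± 0.09 did not pass (adjusted p = 0.0854). Ccnb2, a mitotic cyclin, gave −0.05 ± 0.09, with 6.99 to 7.10 in SPAK KO inside the WT range of 6.89 to 7.38. Foxm1, which switches on mitosis genes, gave −0.05 ± 0.10.

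The mitotic kinases and the passenger complex, which corrects the attachment of chromosomes to the spindle, had 1 lower of 5. Aurka, the Aurora kinase of the spindle poles, read 6.19, 6.12, 6.22 and 5.86 in WT against 5.75, 5.75, 5.76 and 5.76 in SPAK KO. The SPAK KO values were nearly identical, and WT 4 was closer to them than to the other WT arrays. The difference was −0.35 ± 0.08 (SE; 1.27-fold lower; limma adjusted p = 0.0474), from 6.07 ± 0.18 (SD, n = 3) in WT. Aurkb, the kinase of the passenger complex, read 7.11, 7.34, 7.12 and 7.09 against 6.75, 6.72, 6.85 and 7.04. Its groups did not overlap, with SPAK KO 4 just under WT 4, and −0.32 ± 0.08 did not pass (adjusted p = 0.0826). Cdca8 (borealin) and Birc5 (survivin), its partners in the complex, gave −0.23 ± 0.08 and −0.17 ± 0.07 and did not pass. Plk1, a kinase active from mitotic entry to cytokinesis, gave 0.04 ± 0.10, with 6.28, 6.62, 6.52 and 6.13 against 6.48, 6.35, 6.56 and 6.32.

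Of the 3 spindle-binding proteins 1 was lower. Prc1, which bundles the microtubules of the central spindle, read 5.42, 5.42, 5.37 and 5.03 in WT against 4.66, 4.95, 4.76 and 4.92 in SPAK KO. Here WT 4 stood well below the other WT arrays and close to SPAK KO 2. The difference was −0.49 ± 0.10 (SE; 1.40-fold lower; limma adjusted p = 0.0344), from 5.28 ± 0.22 (SD, n = 3) in WT. Nusap1, which binds spindle microtubules near the chromosomes, read 6.68, 7.17, 7.37 and 6.68 against 6.71, 6.52, 6.59 and 6.54. WT 1 and WT 4 lay within the SPAK KO range, and the difference of −0.38 ± 0.14 (adjusted p = 0.193) became −0.09 with WT 2 and WT 3 left out. Tpx2, which activates Aurora A on the spindle, gave −0.26 ± 0.10 (adjusted p = 0.218).

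None of the 4 genes of the spindle checkpoint and anaphase passed by limma, with 1 lower at an unadjusted p under 0.05. That gene, Bub1, a checkpoint kinase, read 4.96, 4.84, 5.19 and 5.08 against 4.85, 4.36, 4.47 and 4.68. WT 2 fell just inside the SPAK KO range, and the difference of −0.42 ± 0.11 had an adjusted p of 0.082. Cdc20, the activator of the anaphase-promoting complex, and the checkpoint genes Ttk and Bub1b gave −0.13, −0.12 and −0.09. Of 6 kinesin and kinetochore genes 0 passed by limma and 1 was lower at an unadjusted p under 0.05, Kif20a, a kinesin of cytokinesis, at −0.26 ± 0.10. Kif2c and Kif11, kinesins of chromosome attachment and spindle assembly, and the kinetochore motor gene Cenpe gave −0.10, −0.08 and −0.05. Kif23, a motor of the central spindle, and the kinetochore gene Cenpf gave 0.03 and 0.03.

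Mki67, whose protein coats mitotic chromosomes and is the usual stain for cycling cells, read 6.74, 6.90, 6.99 and 6.65 in WT against 6.59, 6.31, 6.45 and 6.52 in SPAK KO. The groups did not overlap, and the difference of −0.35 ± 0.09 (SE) missed the threshold (limma adjusted p = 0.0711). Top2a, the topoisomerase that untangles sister chromatids, read 5.30, 5.47, 5.58 and 5.27 against 5.36, 5.22, 5.29 and 5.22. Its groups overlapped, at −0.13 ± 0.08. Cdca3, which promotes mitotic entry, gave −0.15 ± 0.11. Ccnd1, the G1 cyclin that couples growth signals to the cycle and is not restricted to dividing cells, read 11.01, 11.45, 11.43 and 10.89 against 11.13, 11.10, 11.06 and 11.04. The SPAK KO arrays lay between the WT arrays, at −0.11 ± 0.12, and the sign turned to 0.13 with WT 2 and WT 3 left out.

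Replication and mitosis genes were then set against each other. Of 19 replication genes 2 were lower, 0 higher and 17 did not pass, and of 25 mitosis genes 3 were lower, 0 higher and 22 did not pass. The difference lay below 0 for 17 of 19 and for 22 of 25. The roles also differed in brightness, with a mean under 6 for 6 of 19 replication genes and 15 of 25 mitosis genes. The median difference was −0.09 for replication and −0.15 for mitosis. Mitosis minus replication was thus −0.06. For scale, the median level of mitosis minus replication genes had an SD of 0.11 among the 3 WT samples. That SD is a spread of single samples, not the error of a difference between genotypes. The −0.06 became 0.0042 with WT 2 and WT 3 left out and −0.002 with quantile normalization applied again. The size of difference thus did not set the groups apart across these settings, and it was not tested.

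The WT arrays themselves differed more in the mitosis genes. The median deviation from each gene's mean was 0.04, 0.21, 0.12 and −0.03 on WT arrays 1 to 4 for mitosis, and 0.06, 0.05, 0.07 and −0.02 for replication. On the SPAK KO arrays it was −0.06, −0.11, −0.05 and −0.11 for mitosis and −0.03, −0.06, −0.07 and −0.08 for replication. WT 4 was the lowest WT array for both groups and lay just above the SPAK KO arrays. WT 2 and WT 3 were both above WT 1 and WT 4 for 15 of 25 mitosis genes and 6 of 19 replication genes, against 17.4% of all genes. Since WT 2 and WT 3 agree closely, they add little independent weight to that pattern. With both left out, 35 of 45 members still had a difference below 0, against 53.7% of all genes, and the medians were −0.11 for replication and −0.10 for mitosis. limma then called 0 members. At an unadjusted p under 0.05, 12 members were lower and 2 higher, where 9.25% of all genes were lower and 8.15% higher.

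**Figure D4:**
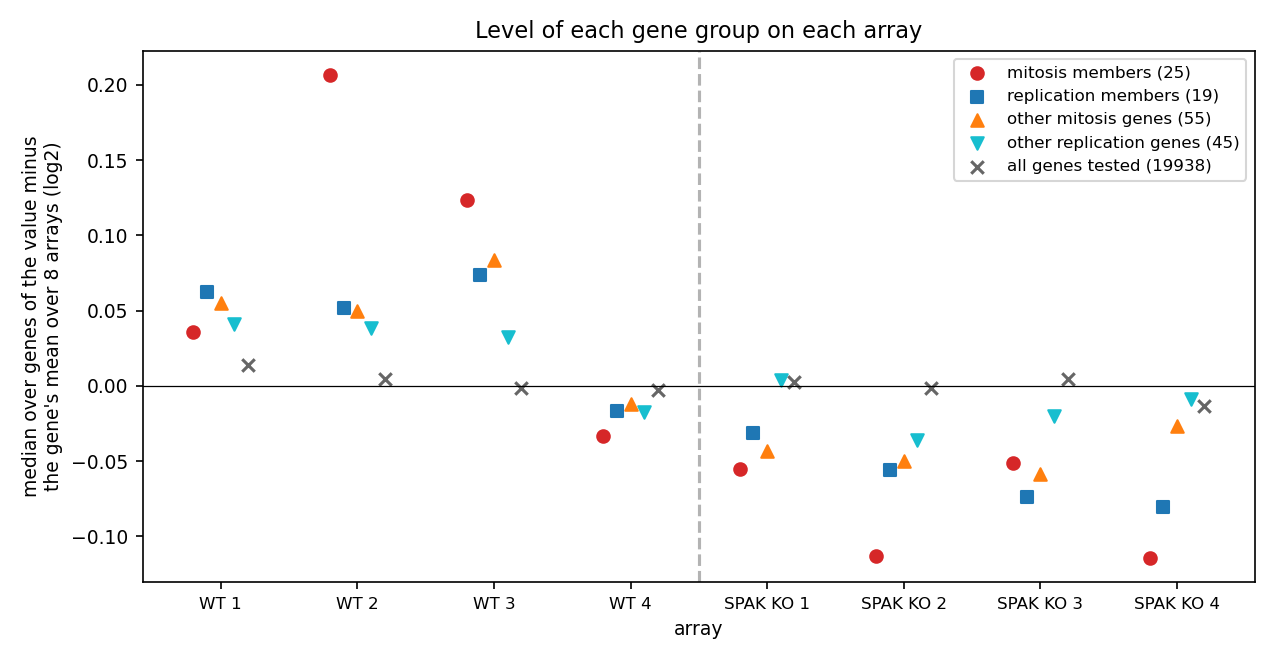
Median over the genes of a group of the log2 RMA value minus the gene's mean over the 8 arrays (vertical axis), for each array (horizontal axis) and for 5 groups of genes. Mitosis members stand at 0.21 and 0.12 on WT 2 and WT 3 and at −0.05 to −0.11 on the SPAK KO arrays, while all genes tested stay near 0.

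Other genes of the cycle, which belong to none of the above, were read from further lists. For comparison, limma called 0.682% of all genes lower and 1.39% higher. At an unadjusted p under 0.05, 10.1% of all genes were lower and 9.0% higher. The difference lay below 0 for 54.2% of all genes. These shares also apply to the marker lists further below. Of 45 other replication genes 1 was lower and 0 higher by limma (8 lower and 3 higher at an unadjusted p under 0.05), with a median of −0.02. That gene, Chaf1b, a subunit of the factor that places histones on new DNA, read 6.58, 6.70, 6.80 and 6.60 against 6.34, 6.21, 6.30 and 6.29. Its groups did not overlap, at −0.38 ± 0.06 (SE; limma adjusted p = 0.0133), and it passed with any 1 array removed (8 of 8). Of 55 other mitosis genes 2 were lower and 0 higher (14 and 1 unadjusted), with a median of −0.08 and 42 below 0 (76.4%). Kif20b, a kinesin of cytokinesis, read 5.87, 5.74, 5.54 and 5.66 against 5.27, 5.12, 5.19 and 5.08. Its groups were well apart, at −0.54 ± 0.08 (adjusted p = 0.0071), and passed with any 1 array removed (8 of 8). Ncaph, a subunit of condensin, which compacts mitotic chromosomes, gave −0.35 ± 0.07 (adjusted p = 0.0271) and passed in 4 of 8, not without WT 2, SPAK KO 1, SPAK KO 3 or SPAK KO 4. With centring on all probe sets the medians of these lists were 0.04 and −0.02, against 0.05 over all genes (−0.01 without it). The sign of the replication median changed, as did that of all genes.

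Of 14 genes for G1 cyclins, their kinases and transcription factors 0 passed by limma, and 0 had an unadjusted p under 0.05. The median was −0.01. E2f4, a repressing E2F, and Mybl2, which encodes B-MYB, gave 0.07 ± 0.05 and −0.11 ± 0.12. Of 15 cell cycle inhibitors 1 was higher and 0 lower (3 higher and 1 lower unadjusted), with a median of 0.03. Btg2, an antiproliferative gene that also responds quickly to growth factors and stress, read 7.18, 7.0, 7.06 and 7.02 in WT against 7.61, 7.50, 7.45 and 7.55 in SPAK KO. Every SPAK KO array was above every WT array, at 0.46 ± 0.06 (SE; limma adjusted p = 0.00456), and passed with any 1 array removed (8 of 8). Cdkn1a and Trp53 are not analysed here.

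Markers of cells that could be in cycle were set beside these values. Of 9 lymphocyte markers 1 was lower, Cd3e of the T cell receptor complex, at −0.31 ± 0.06 (limma adjusted p = 0.0443; passing in 1 of 8 when single arrays were removed), and 8 lay below 0. Cd3e read 6.59, 6.83, 6.72 and 6.75 against 6.50, 6.32, 6.37 and 6.48, with WT 1 next to the SPAK KO range. Nkg7 gave −0.40 ± 0.10, with groups that did not overlap, and did not pass (limma adjusted p = 0.0742). Cd8a alone lay above 0, at 0.09 ± 0.08. At an unadjusted p under 0.05, 3 of the 9 were lower and 0 higher, and 6 of the 9 had a mean under 6. The summed lymphocyte level (log2 of the sum of linear values) was 8.86 to 8.94 on the WT arrays and 8.65 to 8.76 on the SPAK KO arrays. The part of lymphocytes in the lower cell cycle values was not tested. Among red cell precursor markers 0 of 4 passed by limma (2 lower and 1 higher unadjusted). Tfrc, the transferrin receptor of iron-demanding and dividing cells, read 8.46, 9.09, 9.06 and 8.83 against 8.36, 8.31, 8.33 and 8.38. It was lower on every SPAK KO array, at −0.51 ± 0.12, and did not pass (adjusted p = 0.0598). Klf1, the erythroid transcription factor, ran the other way, at 6.03, 6.07, 6.05 and 5.84 against 6.24, 6.30, 6.20 and 6.13, with every SPAK KO array above every WT array (0.22 ± 0.06, adjusted p = 0.109). Alas2, which starts heme synthesis in red cell precursors, gave −0.02 ± 0.10, and Epb42, a red cell membrane protein gene, −0.31 ± 0.12. The summed level of those 4 markers, 9.03 to 9.53 in WT and 8.95 to 9.04 in SPAK KO, is mostly that of Tfrc, the brightest. Its part in the result was not tested.

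Markers of myeloid cells, endothelium, stroma and tubular injury had no called member. Of 9, 6, 6 and 7 genes 0 passed by limma in each list, with 2, 1, 0 and 0 lower and 0, 0, 0 and 1 higher at an unadjusted p under 0.05. The medians were −0.01, −0.05, −0.01 and 0.05, and summed levels overlapped for myeloid cells (10.47 to 10.59 in WT, 10.48 to 10.59 in SPAK KO) and stroma (11.11 to 11.25 and 11.16 to 11.22). For endothelium the summed level was 12.11 to 12.16 in WT and 12.02 to 12.10 in SPAK KO. Its markers ran both ways. Emcn, the brightest, gave −0.12, and Ehd3, Tek and Kdr gave −0.15, −0.07 and −0.03, while Pecam1 and Cdh5 gave 0.08 and 0.05. For tubular injury the summed level was 10.59 to 10.85 in WT and 10.92 to 10.98 in SPAK KO. The injury sum is mostly that of Clu, the clusterin gene, at 10.31, 10.21, 10.33 and 10.55 against 10.70, 10.62, 10.63 and 10.64 (0.30 ± 0.07, adjusted p = 0.0668). The other injury genes, Havcr1, Krt20, Sox9, Lcn2, Vcam1 and Cd44, gave 0.05, −0.02, −0.0046, −0.14, 0.14 and 0.08, with overlapping groups. With Clu, 4 of the 7 lay above 0. The part of endothelium or of Clu in the cell cycle values was not tested.

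Markers of tubule segments, whose cells can also be in cycle, moved with genotype as well. Of 3 distal convoluted tubule markers 2 were lower by limma, and on all 3 every SPAK KO array lay below every WT array. Pvalb, which encodes parvalbumin, read 8.56, 8.45, 8.45 and 8.17 against 7.03, 7.27, 7.03 and 7.09, a difference of −1.30 ± 0.09 (adjusted p = 3.47e-04), and Trpm6, a magnesium channel gene, gave −0.63 ± 0.10 (adjusted p = 0.0123). Both passed with any 1 array removed (8 of 8), and both differences exceed those of every cell cycle member in size. Slc12a3, the thiazide-sensitive cotransporter gene of that segment, gave −0.14 ± 0.05 and did not pass (adjusted p = 0.183). The summed level of the 3 was 12.47 to 12.62 in WT and 12.32 to 12.34 in SPAK KO.

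Of 4 thick ascending limb markers 1 was higher, the claudin gene Cldn16 at 0.32 ± 0.05 (limma adjusted p = 0.00854), and on all 4 every SPAK KO array lay above every WT array. Their summed level was 13.64 to 13.67 in WT and 13.77 to 13.82 in SPAK KO. Of 5 collecting duct markers 2 were higher and 1 lower. The intercalated cell genes Slc26a4 (pendrin) and Atp6v1g3 (a proton pump subunit) gave 0.65 ± 0.08 and 0.52 ± 0.07. Aqp2, a water channel gene of principal cells, gave −0.29 ± 0.06 (limma adjusted p = 0.0447) and passed in 1 of 8 when single arrays were removed. Aqp3, another water channel gene, ran the other way, at 9.41 to 9.61 in WT and 9.76 to 9.84 in SPAK KO. Its difference of 0.23 ± 0.06 did not pass (limma adjusted p = 0.0761), and Scnn1g gave 0.05 ± 0.07. The summed level was 11.96 to 12.15 in WT and 12.23 to 12.26 in SPAK KO. Of 8 proximal tubule markers 1 was higher, the water channel gene Aqp1 at 0.34 ± 0.06, and 0 were lower (1 lower and 3 higher unadjusted). The difference lay above 0 for 5 and below 0 for 3, Slc5a2, Slc22a6 and Slc34a1. Slc5a2 was lower on every SPAK KO array, at −0.17 ± 0.07, and did not pass (limma adjusted p = 0.205). Slc22a6 and Slc34a1 gave −0.01 and −0.001. The summed level was 15.51 to 15.56 in WT and 15.60 to 15.61 in SPAK KO. Of 4 podocyte markers 0 passed by limma (0 lower and 2 higher unadjusted), with summed levels of 10.79 to 10.88 and 10.90 to 10.99. The part of these segments in the cell cycle values was not tested.

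Of the members, 8 lie on the chromosome of Stk39. None of these 8 lies within 20 Mb of it in the RefSeq gene table.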

How the data were processed

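Renal cortex RNA labelled as that of 4 WT and 4 SPAK KO mice was measured on 8 arrays. The authors deposited log2 values, 1 per probe set and array, which the submitters' processing notes credit to RMA and Affymetrix Expression Console; version, build and filters are not given in the sources used here. RMA brings arrays to a common distribution, so a shift of most genes would be hidden, and dim probe sets have no stated floor. The number of separate mice limits the precision.

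Of 35556 probe sets, 21789 had exactly 1 symbol in the platform annotation, 1621 several and 12146 none. The brightest probe set stood for each of 19938 genes. limma 3.58.1 in R 4.3.3 (lmFit, eBayes) was fitted with genotype as its only term, and a gene was called at a Benjamini-Hochberg adjusted p under 0.05. The procedure was tested on simulated data with independent noise on every array, so the close agreement of some arrays was not covered. Alternatives covered normalization, a filter on means under 6, probe set averaging, variance model (statmod 1.5.0), replicate numbers as a block, agreeing arrays and leaving out arrays. Centring on all probe sets and leaving out WT 2 with WT 3 were added after seeing the data.

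Any member could be named, as could called genes of the other cell cycle lists (otherwise the 2 with the smallest p); other names were picked with their values in view. The members and lists were chosen with earlier results of these data known. Promoters and gene positions came from RefSeq tables of GRCm38.p6.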

Additional observations from a re-analysis of the deposited data

Results flagged for a closer look

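Values far from the others of their group were sought among the 4 arrays of each genotype for the 45 members, 90 groups in all, and 4 were found where chance flags about 1 in 20. Aurkb stood high on WT 2 at 7.34, with the other WT arrays at 7.09 to 7.12. Prc1 stood low on WT 4 at 5.03, with the others at 5.37 to 5.42. Kif23 stood low on SPAK KO 2 at 6.13 (others 6.30 to 6.33) and Rrm1 on SPAK KO 3 at 7.44 (others 7.58 to 7.60). The arrays of a group are not all independent, so these gaps describe arrays rather than mice.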

How the results depend on the processing

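With the values as deposited, 5 members were called lower (2 of replication, 3 of mitosis), 0 higher, and 3 and 1 of the other cell cycle genes lower and higher. Centring on named probe sets and averaging probe sets left every count as it was. Quantile normalization again and cyclic loess each gave 3 members lower, 1 of them of mitosis. The trended and robust variance gave 9 lower (7 of mitosis) and 1 higher. Leaving out means under 6 gave 1 higher and 6 lower among the 24 members left. Centring on all probe sets gave 2 lower, 0 of them of replication, and 1 higher, with a replication median of −0.031. Averaging WT 2 and WT 3 gave 1 lower, of mitosis, and 0 of replication. Counting agreeing arrays once gave 0 members lower in either role and 0 other cell cycle genes in either direction. Leaving out WT 2 with WT 3 gave 0 members lower in either role, 1 other gene lower, and a mitosis minus replication median of 0.0042. Without 1 array, members lower ranged from 0 to 5, of replication from 0 to 1, of mitosis from 0 to 4, and other genes lower from 2 to 6. Over the same fits 0 members were higher and 1 other gene was higher, and the replication median ran from −0.15 to −0.073, the mitosis median from −0.24 to −0.12, and their difference from −0.11 to 0.033. Leaving out genes of more than 1 role changed the medians by less than the WT spread. No called member changed sign under any alternative. The cause of the other changes was not tested.

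The replicate numbers of the titles did not pair the arrays: deviations of same-numbered arrays correlated at 0.07, 0.10, −0.07 and 0.19 over 6297 genes, and 2 of 4 WT arrays correlated best with their own number. With the replicate block, 0 members were lower (0 of replication, 0 of mitosis), 2 other genes were lower and 1 higher. No detection calls were used, so signal over background is unknown for the 21 members with a mean under 6, Prc1 and Aurka among them.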

Other observations

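Some members had more than 1 probe set with their symbol alone. For Tk1 both were lower in SPAK KO, by −0.27 on the brighter and −0.21 on the dimmer, where the groups overlapped. Those named Pcna gave nearly the same values, with differences of 0.06 and 0.07. For Top2a the dimmer probe set, at 2.80 to 3.02, gave 0.05, against −0.13 for the brighter.

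Among the other cell cycle genes, Ect2, an exchange factor that starts cytokinesis, had the largest decrease without a call. It read 6.87, 7.28, 7.23 and 7.26 in WT against 6.37, 6.80, 6.43 and 6.86 in SPAK KO, with WT 1 just above SPAK KO 4 (−0.54 ± 0.13, limma adjusted p = 0.065). Ckap2l, a spindle protein, gave −0.31 ± 0.07 with groups that did not overlap (adjusted p = 0.0534), and Cdt1, which loads the MCM helicase with Cdc6, −0.22 ± 0.06 likewise (adjusted p = 0.0794). Of the cell cycle genes in all lists, Orc4, Cdca7 and Spc25 lie within 20 Mb of Stk39 in the RefSeq table. Cdca7 gave −0.08 ± 0.10.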
